A study of Mus musculus with 9 samples.

Results

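Plasma cells are the antibody-secreting end stage of the B cell lineage, and the cytokines BAFF and APRIL keep B cells and plasma cells alive. The 9 genes described here are the BAFF and APRIL axis and the factors that mark or drive plasma cell differentiation: the ligands Tnfsf13b and Tnfsf13, the receptors Tnfrsf13c, Tnfrsf17, and Tnfrsf13b, and Pou2af1, Mzb1, Prdm1, and Sdc1. They were taken by name from the 24341 gene names of a table of mouse liver expression, and all 9 were present. The livers came from 9 wild-type C57BL/6 mice, collected 48 hours (2 days) after treatment. Mice 2, 5, and 9 (n = 3) received anti-CD40, the agonist antibody FGK45, which activates CD40. Mice 3, 4, 7, 8, 11, and 12 (n = 6) were controls, whose records name PBS. Tissue, strain, genotype (labelled WT), and time of collection were the same in both groups. The methods mention that some of the study's experiments used mice with a Pdx-driven Cre, without naming which. The study's methods describe young adult, sex-matched mice in general, and the sample records give neither age nor sex. The methods also state that some mice given anti-CD40 were excluded from the study because the B cells in their blood did not fall, and whether this was applied to the sequenced mice is not given in the sources used here.

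BAFF, encoded by Tnfsf13b, binds all 3 receptors, whereas APRIL, encoded by Tnfsf13, binds TACI and BCMA. BAFF-R, encoded by Tnfrsf13c, carries the survival signal of mature B cells through the noncanonical NF-κB pathway, which CD40 also uses. Blimp-1, encoded by Prdm1, shuts down the B cell program and turns on antibody secretion, and the adult liver normally holds few plasma cells.

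RNA was read from the 3′ end of each transcript, and the values were deposited as FPKM, fragments mapped to a gene, scaled to its transcript length and to the library's mapped reads. A transcript's length does not change how often its 3′ end is read, so FPKM levels of different genes are not on one scale. Single genes were compared by the fold change of the same gene between mice. The sums over genes given below, and the ratios to them, weight genes with short transcripts more. The lowest value in the table was 0.01, called the floor here. The test was limma on log2(FPKM + 0.1) for the 13807 genes whose FPKM averaged 0.1 or more over all mice, a scale that understates the change of low genes, and a gene was called at a Benjamini-Hochberg adjusted p under 0.05. Of all genes tested, 45.1% were called, 23.5% higher and 21.7% lower after anti-CD40 (3240 and 2990 genes). Leaving out the acute phase genes Saa1, Saa2, and Saa3 and bringing every mouse to a common total gave 5635 genes higher and 1647 lower, as it shifted the median log2 fold change over all genes from 0.0056 to 0.35. Relative depth, read from the steps between low values, lay between 0.870 and 1.13 over the 9 mice. Among the controls, mouse 4 had the highest level in 6 of the 7 genes of the axis that were tested. Nothing in the labels says whether the mice came from separate cages or experiments. The limma p-values set the group difference against the spread between mice of the same group. A cage or experiment that went with the treatment could not be told apart from it.

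Of the 9 genes, 7 passed the filter on low values, each of them also with a mean above 0.1 in the control mice. Of these 7, 6 were higher after anti-CD40 (Tnfsf13b, Tnfsf13, Tnfrsf13c, Pou2af1, Mzb1, and Prdm1), none was lower, and Sdc1 was not called. The share higher over all genes tested was 23.5%. In the same 6 genes every anti-CD40 mouse lay above every control mouse, which held for 22.7% of all genes tested. The members' median log2 fold change was 1.86, against 0.0056 for all genes tested. Tnfrsf17 and Tnfrsf13b were below the filter and were not tested. Because the livers were sequenced in bulk, more cells of a type cannot be told apart from more RNA per cell in any of these values.

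**Figure D1:**
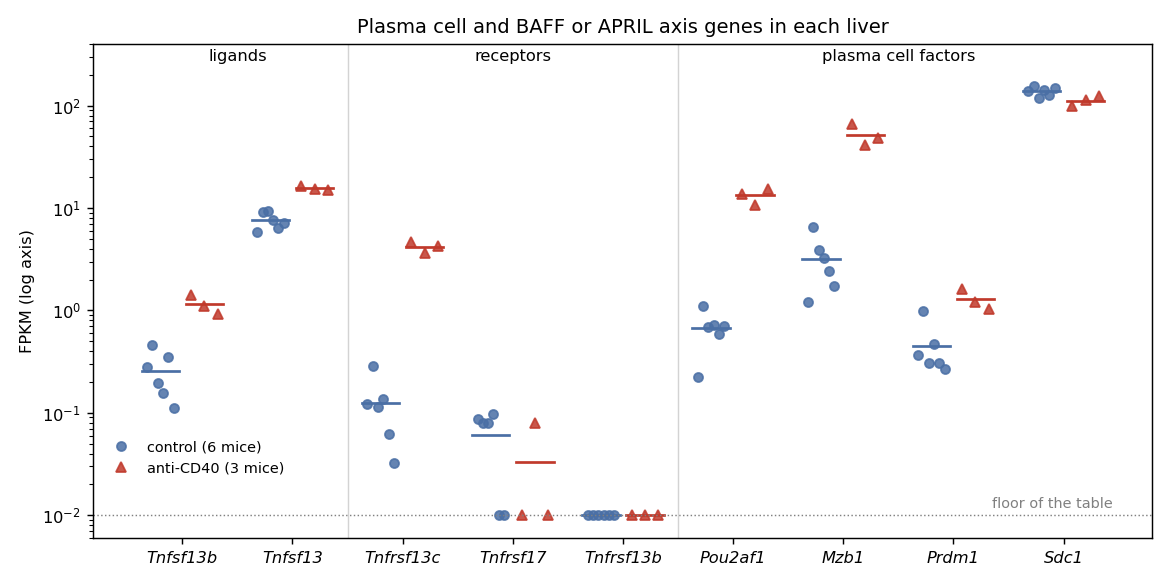
FPKM of the 9 genes in each liver on a log axis, with blue circles for the 6 control mice, red triangles for the 3 anti-CD40 mice, and short bars for group means; each set of points is in the order of the mouse numbers and the dotted line is the floor of 0.01. In 6 genes all red triangles lie above all blue circles, Sdc1 overlaps between 118 and 123, and the receptors Tnfrsf17 and Tnfrsf13b lie at or near the floor in both groups.

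Promoter sequences of Pou2af1, Tnfsf13b, and Tnfrsf13c are shown because these 3 genes, a B cell coactivator, a myeloid and stromal cytokine, and a BAFF receptor of B cells, were each higher after anti-CD40. Each is the 250 bases before a RefSeq start in the GRCm38.p6 build (the mm10 assembly), 5′ to 3′ on the strand of the gene, in lower case with the matches to the motifs below in capitals. The Pou2af1 window is chr9:51213440-51213689 on the plus strand, with an octamer core 231 bases and a cyclic AMP response element core 61 bases before the start. The Tnfsf13b window is chr8:10006383-10006632 on the plus strand, before the later of the 2 starts searched, where its row in the table begins. It holds an interferon-type repeat 16 bases before that start. The RefSeq gene begins earlier, at base 10006229, so this window lies within it. The Tnfrsf13c window is chr15:82224381-82224630 on the minus strand, and no motif searched was found in these letters.
Pou2af1: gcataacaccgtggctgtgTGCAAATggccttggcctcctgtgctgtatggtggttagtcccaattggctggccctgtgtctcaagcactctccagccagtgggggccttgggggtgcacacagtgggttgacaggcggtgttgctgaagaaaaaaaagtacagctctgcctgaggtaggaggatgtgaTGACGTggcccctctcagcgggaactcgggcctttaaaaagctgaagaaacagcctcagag
Tnfsf13b: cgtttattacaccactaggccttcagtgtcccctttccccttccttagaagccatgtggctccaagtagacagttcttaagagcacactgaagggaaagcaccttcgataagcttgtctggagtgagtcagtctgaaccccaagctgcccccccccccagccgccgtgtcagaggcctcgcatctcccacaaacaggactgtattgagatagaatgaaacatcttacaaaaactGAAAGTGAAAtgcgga
Tnfrsf13c: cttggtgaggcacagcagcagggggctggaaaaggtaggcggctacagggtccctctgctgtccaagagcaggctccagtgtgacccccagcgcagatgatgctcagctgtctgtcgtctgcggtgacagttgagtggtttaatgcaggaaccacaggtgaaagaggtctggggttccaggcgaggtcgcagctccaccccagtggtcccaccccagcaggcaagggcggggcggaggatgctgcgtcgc
The motifs, searched on both strands, were TGCAAAT, the core of the octamer that POU factors bind and that Pou2af1 protein recognizes with them; the full octamer ATGCAAAT, which contains that core; TGACGT, the core of the cyclic AMP response element; an interferon-type repeat bound by IRF factors, which is GAAA and GAAA with any 2 bases between; the composite element of ETS and IRF factors, which is GGAA and GAAA with any 2 bases between; and the NF-κB consensus. Of 32851 promoter windows of the same length, 3.56% held the octamer core, 1.6% the full octamer, 6.47% TGACGT, 2.98% the interferon-type repeat, 2.3% the ETS and IRF element, and 3.9% the NF-κB consensus. Besides the windows printed, the octamer core was also present before the start used for Prdm1 and the interferon-type repeat before that for Tnfrsf17. Both windows lie within the RefSeq genes, of which Prdm1 reaches to base 44528558 of chromosome 10 and Tnfrsf17 begins at base 11313232 of chromosome 16. The ETS and IRF element, the full octamer, and the NF-κB consensus were in no window searched for the 8 genes other than Mzb1, whose promoter was not searched. These matches describe the letters only and give nothing on whether a factor was bound.

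The transcript of the ligand BAFF rose, and its protein was not measured in these data. Tnfsf13b (chromosome 8 of mm10, 10006633 to 10035999) had an FPKM of 1.42, 1.09, and 0.931 in anti-CD40 mice 2, 5, and 9, and in the control mice the lowest was 0.111, the median 0.237, and the highest 0.454. The groups did not overlap, and the lowest anti-CD40 mouse was 2.05 times the highest control. The mean was 1.15 ± 0.249 (SD, n = 3) against 0.259 ± 0.130 (SD, n = 6), a log2 fold change of 1.86 (SE 0.31, adjusted p = 7.09e-04 from limma). These are small values: the steps between low FPKM values gave, as the smallest whole numbers of reads, 47, 34, and 27 for anti-CD40 mice 2, 5, and 9. Control mice 3, 4, 7, 8, 11, and 12 had 8, 14, 6, 4, 10, and 3 reads. In total 108 reads in 3 mice stood against 45 reads in 6 mice. Its log2 fold change ran from 0.77 (pseudocount 1) to 2.23 (pseudocount 0.01).

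The APRIL transcript rose as well, with a lower fold change and little spread between the treated mice. Tnfsf13 had an FPKM of 16.5, 15.4, and 15.1 in anti-CD40 mice 2, 5, and 9, and a lowest of 5.77, a median of 7.41, and a highest of 9.28 in the control mice. The groups were separate, and the means were 15.7 ± 0.755 (SD, n = 3) and 7.57 ± 1.46 (SD, n = 6), which gave a log2 fold change of 1.06 (SE 0.16, adjusted p = 4.29e-04 from limma). The table gives Tnfsf13 the position chr11:69682577-69696098, which it also gives to Tnfsf12, the neighbor that encodes the ligand TWEAK, and to Tnfsfm13, the readthrough of both, so reads of the 3 could have been split between them. Tnfsf12 had means of 5.64 ± 1.74 (SD, n = 3) and 5.10 ± 1.22 (SD, n = 6) and was not called (log2 fold change 0.13, adjusted p = 0.656 from limma), and Tnfsfm13 was at the floor in all 9 mice. The sum of the 3 rows was higher after anti-CD40 by 0.76 on the log2 scale (2-sided exact permutation test, p = 0.0238, the smallest that 84 ways to split 9 mice allow).

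Tnfrsf13c, which encodes BAFF-R, had a log2 fold change that was the highest of the 7 genes tested at the pseudocount of 0.1, but not at a pseudocount of 1, with quantile normalization, or without control mouse 12. In anti-CD40 mice 2, 5, and 9 the FPKM was 4.64, 3.61, and 4.27, and in the control mice the lowest was 0.0326, the median 0.118, and the highest 0.285. Control liver was close to the floor for this gene, and the lowest anti-CD40 mouse was 12.7 times the highest control. The mean was 4.17 ± 0.523 (SD, n = 3) against 0.126 ± 0.0875 (SD, n = 6), a ratio of 33.2 and a log2 fold change of 4.32 (SE 0.30, adjusted p = 2.82e-06 from limma), which ranked 73 of the 13807 genes tested. Whole reads were 175, 128, and 141 in the anti-CD40 mice and 4, 10, 4, 4, 2, and 1 in control mice 3, 4, 7, 8, 11, and 12, or 444 against 25 in all. With so few control reads the size depends on the pseudocount, from 2.20 on the log2 scale with a pseudocount of 1, where Mzb1 (3.75) and Pou2af1 (3.10) were higher, to 5.19 with 0.01. With quantile normalization it was 4.08, against 4.27 for Mzb1 and 4.11 for Pou2af1. The gene lies at chr15:82221744-82224336 in the table.

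The other receptors gave almost no reads. Tnfrsf17 (chr16:11313809-11320068), which encodes BCMA, the receptor of late plasma cells, had a value worth 1 read in anti-CD40 mouse 5 and was at the floor in mice 2 and 9. In the control mice it was worth 1 read each in mice 3, 4, 7, and 8 and was at the floor in mice 11 and 12. The highest FPKM was 0.0792 after anti-CD40 and 0.0969 in the controls, the groups overlapped (p = 0.238, 2-sided exact permutation test), and a difference in either direction was not detectable at this depth. Tnfrsf13b, which encodes TACI, was listed at the floor of 0.01 in all 9 mice. Its row in the table (chr11:61140835-61147642) ends 5528 bases before the 3′ end of the RefSeq gene, whereas the rows of the other 8 genes end within 29 bases of theirs, and 3′ reads lie near that end. The value at the floor therefore gives no level for TACI.

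Pou2af1, the coactivator OCA-B that B cells need for germinal centers and antibody gene expression, had an FPKM of 13.8, 10.7, and 15.4 in anti-CD40 mice 2, 5, and 9. Control mouse 3 was lowest at 0.222, control mouse 4 highest at 1.11, and the control median was 0.699. The lowest anti-CD40 mouse was 9.68 times the highest control. The means were 13.3 ± 2.36 (SD, n = 3) and 0.672 ± 0.284 (SD, n = 6), a ratio of 19.8 and a log2 fold change of 4.20 (SE 0.34, adjusted p = 6.80e-06 from limma), rank 84 of the genes tested. Whole reads numbered 722, 528, and 705 after anti-CD40 and 10 to 54 in the controls, so that this rise rested on more reads than those of Tnfsf13b and Tnfrsf13c. The row spans chr9:51213690-51240079.

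Mzb1, an endoplasmic reticulum cochaperone of antibody assembly in marginal zone B cells and plasma cells, rose by a similar factor. Anti-CD40 mice 2, 5, and 9 had 65.7, 41.2, and 48.1 FPKM, and the control mice ran from 1.20 in mouse 3 to 6.51 in mouse 4, with a median of 2.84. The lowest anti-CD40 mouse was 6.33 times the highest control. The means were 51.6 ± 12.6 (SD, n = 3) and 3.17 ± 1.90 (SD, n = 6), a ratio of 16.3 and a log2 fold change of 4.16 (SE 0.43, adjusted p = 3.39e-05 from limma), rank 87 of the genes tested. Its row lies on chromosome 18 from 35647265 to 35649367 and overlaps no other row.

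Prdm1, the master regulator Blimp-1, rose less and came closest to overlapping. Anti-CD40 mice 2, 5, and 9 had an FPKM of 1.62, 1.20, and 1.03, and the control mice had a lowest of 0.266 and a median of 0.337. Control mouse 4, at 0.997, stood apart from the next control at 0.469, and anti-CD40 mouse 9 was only 1.03 times that mouse. The means were 1.28 ± 0.306 (SD, n = 3) and 0.452 ± 0.276 (SD, n = 6), which gave a log2 fold change of 1.42 (SE 0.33, adjusted p = 0.00560 from limma). Without control mouse 4 it was 1.64 (adjusted p = 1.77e-04 from limma), and those of the other 5 genes called higher were also larger without it, for example 4.40 for Mzb1 and 2.00 for Tnfsf13b. With a pseudocount of 1 the log2 fold change of Prdm1 was 0.66, still called (adjusted p = 0.00395 from limma). Blimp-1 is also made by T cells and myeloid cells, whose markers are given below. Its row spans chr10:44437174-44458748.

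Sdc1 encodes syndecan-1 (CD138), the surface marker by which plasma cells are sorted, which hepatocytes and other epithelial cells also carry. In anti-CD40 mice 2, 5, and 9 it stood at 98.7, 114, and 123 FPKM, against a lowest of 118, a median of 141, and a highest of 155 in the control mice. Mouse 9 lay within the control range and the other anti-CD40 mice below it. The means were 112 ± 12.2 (SD, n = 3) and 139 ± 13.7 (SD, n = 6), with a log2 fold change of -0.31 (SE 0.12, adjusted p = 0.0548 from limma), which was not called, and the 2-sided exact permutation test gave p = 0.0476. The sign depended on the scaling. It was 0.085 with quantile normalization, where the median of all genes was -0.09, and 0.056 with the Saa genes left out, where that median was 0.35. Of the other syndecans, Sdc2, a mesenchymal and liver heparan sulfate proteoglycan, was lower (34.2 ± 1.63 against 52.9 ± 5.06, log2 fold change -0.62, adjusted p = 8.85e-04 from limma), a call lost with the Saa genes left out (adjusted p = 0.111 from limma). Sdc3 (-0.25) and Sdc4 (-0.11) were not called. The row of Sdc1 spans chr12:8771396-8793687.

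**Figure D2:**
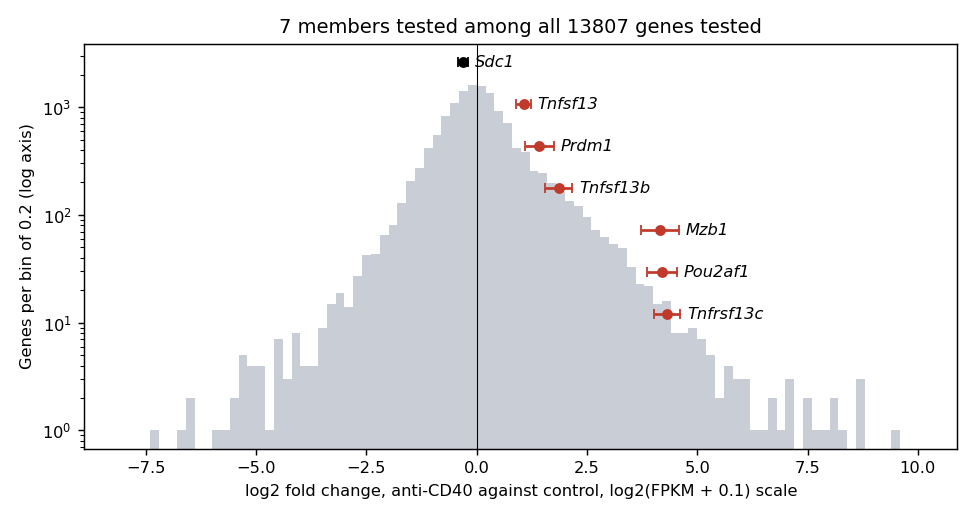
Log2 fold changes, anti-CD40 against control on the log2(FPKM + 0.1) scale, of the 7 genes tested (points with SE bars, red where called, black where not) over a histogram of all 13807 genes tested in bins of 0.2, with genes per bin on a log axis; the height of a point has no meaning. Tnfrsf13c, Pou2af1, and Mzb1 lie between 4.16 and 4.32, Tnfsf13b, Prdm1, and Tnfsf13 between 1.06 and 1.86, and Sdc1 at -0.31.

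At the pseudocount of 0.1, the log2 fold changes of the 6 genes that rose lay between 4.16 and 4.32 (Tnfrsf13c, Pou2af1, and Mzb1) or between 1.06 and 1.86 (Tnfsf13b, Prdm1, and Tnfsf13). Of all genes tested, 0.529% had a log2 fold change at least as high as that of Tnfrsf13c, 0.608% that of Pou2af1, and 0.63% that of Mzb1. The corresponding shares were 6.34% for Tnfsf13b, 9.78% for Prdm1, and 13.7% for Tnfsf13. Within groups, after group means were subtracted, the levels of Mzb1 over the 9 mice followed those of Tnfsf13 (Pearson r = 0.878) and Pou2af1 (r = 0.834), and those of Prdm1 followed Tnfrsf13c (r = 0.889). These were the highest of the member pairs. Others were low, among them Tnfsf13b with Pou2af1 (r = 0.0367) and with Tnfsf13 (r = 0.0689). Pou2af1 with Tnfrsf13c had r = 0.334, and Sdc1 had at most r = 0.278 with any other member. Among all genes tested, those most like Mzb1 in this sense were Ly6d, a surface protein of the B lineage and of epithelia (r = 0.985), P2ry10, a lymphocyte receptor (r = 0.975), and Adgre5, the leukocyte adhesion receptor CD97 (r = 0.974). Those most like Tnfsf13b were Hoxc4 (r = 0.972), Wac (r = 0.970), and Stam2 (r = 0.963). These correlations are descriptions over single libraries, 1 per mouse, in a table normalized as a whole. Control mouse 4 was the highest control in Mzb1, Pou2af1, Prdm1, and Tnfrsf13c, and its weight in these correlations was not tested. Hoxc4 and Wac were themselves not called (adjusted p = 0.786 and 0.736 from limma), and the genes named were the highest of 13807.

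The signaling pathway downstream of the receptors was measured in 19 genes, all of which passed the filter. Of these, 10 were higher, 1 was lower, and 8 were not called, with a median log2 fold change of 0.84 against 0.0056 for all genes. Over all genes tested, 23.5% were higher and 21.7% lower. Relb, a transcriptional subunit of the noncanonical NF-κB route, had an FPKM of 25.9 ± 7.61 (SD, n = 3) against 2.56 ± 0.618 (SD, n = 6), or 3.28 on the log2 scale (adjusted p = 2.38e-06 from limma). Nfkb2, whose product p100 is processed to p52, rose from 0.665 ± 0.0902 to 4.41 ± 0.810 (log2 fold change 2.55, adjusted p = 1.74e-06 from limma). Map3k14, the kinase NIK, rose by a log2 fold change of 1.26. Of the complex that degrades NIK, Traf3 (1.59), Birc2 (1.63), and Birc3 (2.23) rose, and Traf2 (0.32) was not called. Bcl2, a survival factor that BAFF signaling raises, went from 0.808 ± 0.120 to 3.88 ± 0.671 (log2 fold change 2.13, adjusted p = 6.45e-06 from limma). Nfkb1 (0.94), Myd88 (0.84), and Rel (FPKM 1.03 ± 0.233 against 0.464 ± 0.105) were the others called higher. Chuk, the kinase IKKα that acts after NIK in that route, was lower at -0.87, a call lost with the Saa genes left out (adjusted p = 0.0762 from limma), and the call of Rel was lost with quantile normalization (adjusted p = 0.0521 from limma). Furin, the protease that releases APRIL and BAFF, was not called (log2 fold change -0.11). CD40 itself signals through the same route, and the parts of CD40 and BAFF-R in these values cannot be told apart.

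Most of the wider plasma cell program was not called. The list held 32 genes, of which 11 immunoglobulin constant genes had no row under the names searched and 19 were tested. Of these, 6 were higher, 1 was lower, and 12 were not called, with a median log2 fold change of 0.13. Under the alternatives that keep all mice, the number higher ran from 4 to 8. The share higher, 6 of 19, stands beside 23.5% of all genes, and Irf4 passed the filter only through the anti-CD40 mice. Slamf7, a receptor of plasma cells, NK cells, and activated myeloid cells, had the highest log2 fold change of the list, with 3.11 ± 0.371 (SD, n = 3) against 0.150 ± 0.0808 (SD, n = 6), or 3.74 on the log2 scale (adjusted p = 4.35e-06 from limma). Cxcr4, the chemokine receptor that brings plasma cells and many leukocytes to their niche, had 24.1 ± 7.75 against 2.76 ± 1.41 (3.15, adjusted p = 4.71e-05 from limma). Irf4, a factor of B cell activation and plasma cell fate, had 0.350 ± 0.0489 against 0.0378 ± 0.0299 (1.73, adjusted p = 2.20e-04 from limma), and Cd27, a receptor of memory B cells, plasma cells, and T cells, 1.67 ± 0.434 against 0.481 ± 0.125 (1.60, adjusted p = 2.56e-04 from limma). Cd38, a surface enzyme of plasma cells and other leukocytes (7.84 ± 1.54 against 3.60 ± 0.738), and Fkbp11, a chaperone of the secretory pathway (0.85 on the log2 scale), were the others called higher, and the call of Fkbp11 was lost in 5 of 18 alternatives.

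Sec11c, Xbp1, and Jchain were among the 12 not called. Sec11c was close to the threshold (0.34 on the log2 scale, adjusted p = 0.0505 from limma), and its groups did not overlap. It stayed not called in 12 of 18 alternatives and was called higher in the others. Xbp1, the factor of the secretory program, which hepatocytes also use, had 87.8 ± 8.63 (SD, n = 3) against 82.9 ± 21.0 (SD, n = 6), or 0.12 on the log2 scale (adjusted p = 0.667 from limma). Jchain, the joining chain of secreted IgM and IgA, had 0.962 ± 0.0462 against 0.905 ± 0.195 (0.10, adjusted p = 0.686 from limma), with overlapping groups. Its row ends at the RefSeq 3′ end. Eaf2, an elongation cofactor of activated B cells, was lower, at 0.155 ± 0.0448 against 0.608 ± 0.205 (-1.43, adjusted p = 0.00147 from limma). Fcrl5 and Il5ra were below the filter. Fcrl5 was at the floor in every control mouse and between 0.0429 and 0.205 after anti-CD40.

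Transcription factors of the B cell and germinal center state moved in different directions. Of the 5 that were tested, 2 were higher, 1 lower, and 2 not called, with a median log2 fold change of -0.14, beside 23.5% higher and 21.7% lower over all genes tested. Spib, an ETS factor of B cells and plasmacytoid dendritic cells, reached 5.86 ± 0.230 (SD, n = 3) against 0.484 ± 0.327 (SD, n = 6), or 3.50 on the log2 scale (adjusted p = 3.15e-05 from limma). Mitf, which holds down Irf4 in resting B cells, was higher by 0.57 (adjusted p = 0.0224 from limma), a call lost in 3 of 18 alternatives, among them those without anti-CD40 mouse 2 or 9. Bach2, which represses Prdm1 in B cells, was lower at -1.01 (0.733 ± 0.0833 against 1.66 ± 0.637, adjusted p = 0.0107 from limma), a call lost with the Saa genes left out (adjusted p = 0.0580 from limma). Bcl6, the repressor of the germinal center (-0.14), and Id3, an inhibitor of E proteins (-0.37), were not called. Pax5, the identity factor of B cells, was below the filter, at the floor in all 6 control mice and at most 0.0901 after anti-CD40. The row of Pax5 ends 6758 bases short of the RefSeq 3′ end.

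Among 9 genes of the plasma cell niche, 7 were tested, of which 5 were higher, 1 was lower, and 1 was not called, with a median log2 fold change of 1.19. The shares over all genes tested were 23.5% higher and 21.7% lower. Vcam1 and Icam1, adhesion molecules that hold plasma cells on stroma, reached 115 ± 20.3 against 26.2 ± 9.45 (2.19, adjusted p = 1.23e-04 from limma) and 12.9 ± 1.38 against 1.49 ± 0.299 (3.04, adjusted p = 7.11e-07 from limma). Cd80, a costimulatory ligand, rose from 0.0539 ± 0.0401 to 0.644 ± 0.0363 (2.32, adjusted p = 5.12e-05 from limma), and Il6, a survival cytokine of plasma cells, was higher by 1.19, and both passed the filter only through the anti-CD40 mice. The call of Il6 was lost with quantile normalization (adjusted p = 0.0543 from limma), and that of Cd86 (0.76) was kept in 8 of 18 alternatives. Cxcl12, the ligand of CXCR4, was lower, at 88.8 ± 1.75 against 172 ± 10.6 (-0.95, adjusted p = 2.11e-05 from limma), so that the ligand fell where its receptor rose. Il10 was not called (-0.29), and Il21 and Il5 were listed at the floor in all 9 mice. The rows of Cd80 and Rel end 9026 and 4882 bases short of the RefSeq 3′ end. Those of Fcer2a, Birc3, and Siglech end 1457, 1233, and 615 bases short. The row of Nfkb2 runs past that end, to base 46327156 of chromosome 19 against 46312400. The row of Cd27 also does, to base 125224212 of chromosome 6 against 125232620. Both could hold reads of other transcripts, which was not tested.

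**Figure D3:**
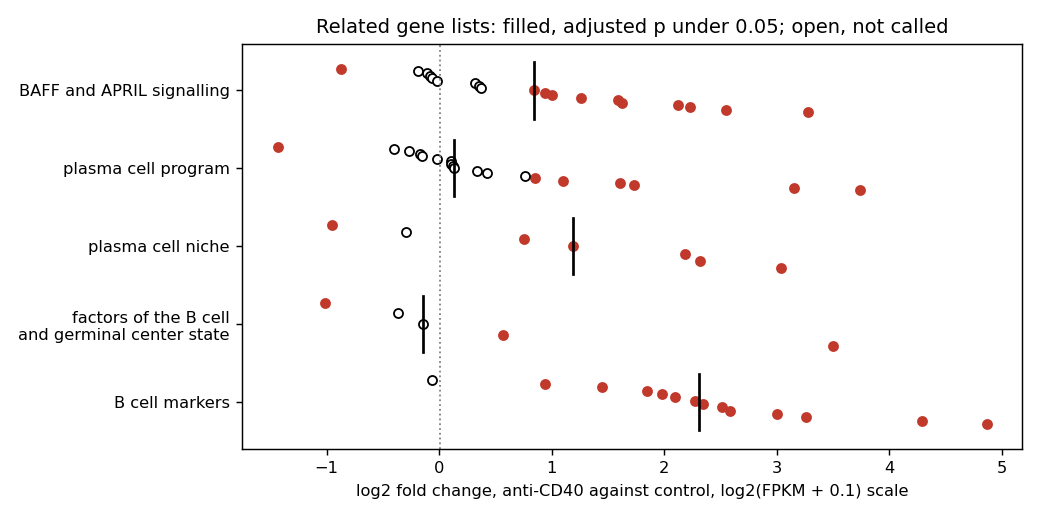
Log2 fold change of every tested gene of 5 related lists, anti-CD40 against control on the log2(FPKM + 0.1) scale, filled where the adjusted p was under 0.05 and open where it was not, with a vertical bar at each list's median; the height within a row has no meaning. The medians are 0.84 for signaling, 0.13 for the plasma cell program, 1.19 for the niche, -0.14 for the factors of the B cell and germinal center state, and 2.31 for the B cell markers.

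Markers of several cell types moved with these genes. Of 14 B cell markers, 13 were higher and 1 was not called, with a median log2 fold change of 2.31, beside 23.5% higher over all genes tested. Fcer2a, the low affinity IgE receptor CD23, reached 7.93 ± 2.37 (SD, n = 3) against 0.198 ± 0.173 (SD, n = 6), or 4.87 on the log2 scale (adjusted p = 8.73e-06 from limma). Cd37 rose from 0.969 ± 0.310 to 6.14 ± 0.823 (2.59, adjusted p = 1.43e-05 from limma) and Blk, a kinase of the B cell receptor, from 0.0672 ± 0.0543 to 0.679 ± 0.0609 (2.27, adjusted p = 7.40e-05 from limma). Blk and Cd79a passed the filter only through the anti-CD40 mice. Cd72, which myeloid cells also carry, was the gene not called, at 7.75 ± 2.21 against 8.04 ± 1.85. Its row reaches to base 43442277 of chromosome 4, past the RefSeq 3′ end at 43447724. It could therefore hold reads of another transcript, which was not tested. The summed FPKM of the 14 markers was 52.7 to 69.1 after anti-CD40 and 13.5 to 19.4 in the control mice, highest in control mouse 4.

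Mzb1, Pou2af1, and Tnfrsf13c, which B cells themselves express, were also compared with the summed B cell markers. Single markers differed by as much as these genes: the log2 fold change was 4.87 for Fcer2a and 4.30 for Ms4a1, the surface protein CD20 (adjusted p = 1.42e-04 from limma), against 4.16 to 4.32 for the 3 genes. Divided by the 14 summed markers, Mzb1 was 0.731 to 0.950 after anti-CD40 and 0.0841 to 0.335 in the control mice, higher by 2.15 on the log2 scale. The corresponding differences were 2.38 for Pou2af1 and 3.29 for Tnfrsf13c, beside 2.06 for the summed markers themselves. Cd72 made up a large part of the control sum, and without it the markers differed by 3.07 and the ratios by 1.14 for Mzb1, 1.36 for Pou2af1, and 2.27 for Tnfrsf13c. In every one of these ratios the 3 anti-CD40 mice lay above the 6 control mice (p = 0.0238 each, 2-sided exact permutation test). The groups came closest in Mzb1 without Cd72, at 0.857 in the lowest anti-CD40 mouse and 0.563 in the highest control. The ratios were chosen after the values had been seen, and their cause was not tested. They depend on the markers chosen and on how FPKM weights those markers by transcript length.

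**Figure D4:**
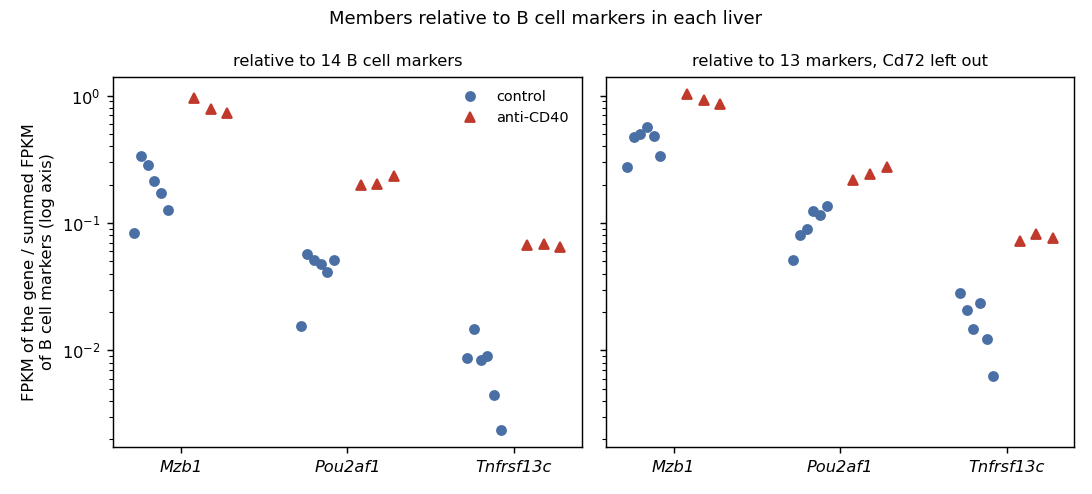
FPKM of Mzb1, Pou2af1, and Tnfrsf13c divided by the summed FPKM of 14 B cell markers (left) or of 13 without Cd72 (right) in each liver, on a log axis, with blue circles for the 6 control mice and red triangles for the 3 anti-CD40 mice. All red triangles lie above all blue circles in both panels, and the gap is narrower on the right, where Mzb1 spans 0.857 to 1.03 against 0.274 to 0.563.

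The ligands are made mainly by myeloid and stromal cells. Of 10 myeloid markers tested, 7 were higher and 1 was lower, and their summed FPKM was 4226 to 5215 after anti-CD40 against 33.9 to 172 in the control mice, most of it from S100a8 and S100a9. Itgax rose by 4.21, Itgam by 3.35, Cd14 by 4.94, and Ccr2 by 2.80 on the log2 scale. The myeloid marker that was lower was Adgre1, at -1.49 (adjusted p = 0.00209 from limma). Csf1r (-0.62) and Fcgr1 (0.49) were not called. All 5 Kupffer cell markers were lower, with a summed FPKM of 37.2 to 48.1 against 268 to 425 and with Clec4f, their defining lectin, at -6.77. Of the plasmacytoid dendritic cell markers, 2 of 4 tested were higher, Klk1 (2.88) and Siglech (0.67). The size for Klk1 rested on anti-CD40 mouse 5, at 11.8 FPKM against 1.42 and 1.38 in mice 2 and 9, and without mouse 5 its log2 fold change was 1.89 and was still called. The call of Siglech was kept in 6 of 17 alternatives. T cell markers were higher in 5 of 6, with a sum of 6.77 to 9.29 against 2.04 to 3.49. Of the T cell markers called, Cd8a passed the filter only through the anti-CD40 mice. NK cell markers were higher in 5 of 5 tested, with a sum of 62.3 to 86.3 against 3.08 to 12.2. These counts depended on single mice, as 2 or 3 T cell markers were called without anti-CD40 mouse 2 or 9 or control mouse 3, 8, 11, or 12, and 3 NK cell markers without anti-CD40 mouse 5 or 9 or control mouse 3 or 11. Hepatocyte markers, which bear on Sdc1, were lower in 5 of 6, with a sum of 3859 to 4668 against 11742 to 22128, and Alb at -2.43. Of the cholangiocyte markers, Sox9 (3.57) was higher and 3 were not called, sinusoidal endothelial markers were higher in 2 and lower in 1 of 5 (1 higher without anti-CD40 mouse 5 or 9), and stellate cell markers higher in 1 and lower in 2 of 5. All these counts stand beside 23.5% higher and 21.7% lower over all genes tested. The row of Clec4g, the endothelial marker that was lower, ends 9005 bases short of the RefSeq 3′ end. The rows of the stellate cell markers Lrat and Des run past that end. Lrat, which was lower, reaches to base 82876705 of chromosome 3 against 82892582. Both rows could hold reads of other transcripts, which was not tested. The part of these cell types in the members' values was not tested.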

How the data were processed

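RNA from bulk liver was made into QuantSeq 3′ FWD libraries and sequenced on an Illumina NextSeq. According to the methods and labels, the authors used STAR (BaseSpace RNA-Seq Alignment) against mm10, then Cufflinks and CuffDiff, and deposited 1 FPKM per gene and mouse. The annotation and any filter are not given in the sources used here. Groups came from the sample labels. Without the 15 genes whose estimate failed in some mouse, 24326 genes remained, used with no further scaling.

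The deposited FPKM were tested as log2(FPKM + 0.1) with limma 3.58.1 in R 4.3.3 (lmFit, eBayes with trend, 2-sided, Benjamini-Hochberg over 13807 genes with a mean of at least 0.1). Single values had an exact permutation test over 84 splits of the mice, whose smallest p is 0.0238. Python 3.11.15 with numpy 2.4.6, pandas 2.3.3, scipy 1.17.1, and matplotlib 3.10.9 did the rest. The scripts were tested on simulated data. Absolute depth is unknown. Whole reads could be read off for low genes alone (93.8% of 1564 low genes were whole in every mouse within 2%), so no count test was run, and they cover counting error only. Read numbers are the smallest that fit.

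The members and gene lists were chosen with earlier results of these data known. Named were all members, up to 4 genes of each list with the smallest adjusted p, and the 3 genes most correlated with Mzb1 and with Tnfsf13b. Other genes named were chosen after their values were seen, and some genes the rule took are not reported here. Promoters came from RefSeq for GRCm38.p6, and amino acid sequences were not used here. Alternatives tried were a pseudocount of 1 or 0.01, a filter at 0 or at a mean FPKM of 1, quantile and median of ratios scaling, Saa1, Saa2, and Saa3 left out with rescaling, eBayes without the trend or made robust, and leaving out each mouse. Chosen after seeing the data were the sum of the 3 rows at Tnfsf13 and the ratios to the summed B cell markers, with and without Cd72.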

Additional observations from a re-analysis of the deposited data

Results flagged for a closer look

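In 23 values examined over the 6 control mice (the members and the summed marker lists), 2 had an extreme mouse whose gap to the next mouse exceeded Dixon's critical value for 6 samples, as a share of the group's range, and chance gives about 1.15. Both were control mouse 4. Its Prdm1 was 0.997 FPKM against 0.469 in the next control, a gap of 0.723 of the range. Its summed B cell markers were 19.4 against 15.2, a gap of 0.713 of the range. Without this mouse the same number of members was called (6), and the log2 fold change was 1.64 for Prdm1 and 4.49 for Tnfrsf13c. Why this mouse stood apart was not tested.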

How the results depend on the processing

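No paired analysis was possible because the groups share no mouse numbers. Under the 9 alternatives that keep all mice, 4 to 6 members were called, all higher, and the 4 came from requiring a mean FPKM of at least 1, under which Tnfsf13b and Prdm1 were not tested. Mzb1, Pou2af1, Tnfrsf13c, and Tnfsf13 were called higher under every alternative run. Leaving out each mouse gave 6 to 7 members called and 6 higher, with log2 fold changes of 3.93 to 4.40 for Mzb1, 3.97 to 4.35 for Pou2af1, 4.18 to 4.49 for Tnfrsf13c, 1.25 to 1.64 for Prdm1, 1.71 to 2.00 for Tnfsf13b, 0.99 to 1.12 for Tnfsf13, and -0.38 to -0.22 for Sdc1. Sdc1 was called lower only without control mouse 7 (-0.35, adjusted p = 0.0362 from limma), reversed to 0.085 with quantile normalization and to 0.056 with the Saa genes left out, and the cause was not tested. With the Saa genes left out, 5635 genes were higher and 1647 lower, against 3240 and 2990, since rescaling moved the median of all genes to 0.35. Leaving out each mouse gave 4814 to 6830 genes called, 2482 to 3560 higher and 2332 to 3270 lower. Of 540 counts over the gene lists recomputed, 491 stayed within 1.5 times and 49 moved, among them the T cell markers higher (1 to 6) and the B cell markers higher at a mean FPKM of at least 1 (7 of the 13). Depth limited Tnfrsf17 (5 reads in all), and the sizes for Tnfsf13b and Tnfrsf13c, and so the rank of Tnfrsf13c among the members, depended on the pseudocount.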
